A study of Mus musculus with 6 samples.

Results

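The nuclear genes for the subunits of the oxidative phosphorylation complexes were followed in mouse mammary tumour cells recovered from lung metastases. Members were taken by symbol from the array annotation: names starting with Ndufa, Ndufb, Ndufc, Ndufs, Ndufv, Uqcr, Atp5 or Cox4 to Cox8, with Sdha, Sdhb, Sdhc, Sdhd, Cyc1 and Cycs added and the Ndufaf assembly factors left out. The rule found 84 of the 18193 genes that had a probe set with a single symbol. It gave 36 genes for complex I, 4 for complex II, 10 for complex III with cytochrome c, 17 for complex IV and 17 for complex V, covered by 174 probe sets. Complexes were assigned by symbol alone, so Ndufa4 counts in complex I and Cox7a2l in complex IV.

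Oxidative phosphorylation passes electrons from NADH and succinate through complexes I, II, III and IV to oxygen, with cytochrome c as the carrier between complexes III and IV. Complexes I, III and IV pump protons across the inner mitochondrial membrane, and complex V, the ATP synthase, uses the gradient to make ATP. The catalytic cores of complexes I, III and IV are partly encoded by mitochondrial DNA, while most subunits are encoded in the nucleus, and many of their promoters are known targets of NRF1, GABP and YY1.

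The cells were GFP-tagged MVT1, an established metastatic mammary tumour line, injected intravenously into syngeneic FVB/N mice and sorted by GFP from the lungs. The study asked how blocking CSF1R, the macrophage growth factor receptor, changes expression in the metastatic tumour cells. The 3 groups of 2 arrays were mice gavaged with the CSF1R inhibitor GW2580 and sorted at 2 weeks (160 mg/kg daily, dosing begun at 1 week), mice given vehicle and sorted at 2 weeks, and mice given vehicle and sorted at 1 week. The inhibitor was suspended in hydroxypropylmethylcellulose (0.5%) with Tween-80 (0.05%). The sample titles call both vehicle groups control and give no length of vehicle dosing. Time and length of dosing therefore cannot be told apart between these groups. All groups carried the same tumour line, a single line, in the same strain. Cells of each vehicle group were taken from 2 mice. The labels do not say how many mice lay behind the GW2580 arrays, so p-values measure only the spread between these arrays, which may be technical.

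Values are RMA log2 levels from Affymetrix mouse whole-genome arrays, and a difference of 1 is a doubling. Each gene was read on its brightest probe set. A gene was tested where its mean over the 6 arrays reached 4.97, the 40th percentile of all probe set means, which kept 13090 genes and 82 of the 84 members. Cox7b2, a testis form of a complex IV subunit, was at 3.27 to 3.61 on all arrays, and Ndufb4, an accessory subunit of complex I, at 3.91 to 4.38, and neither was tested. A gene was called changed at a limma adjusted p under 0.05, taken over all 13090 genes. With 2 arrays a group, a permutation test could not go below p = 0.333, so the limma fit, which pools the spread over genes and groups, is the test used.

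Of the simple epithelium keratins, Krt8 (13.5 to 13.8) and Krt18 (12.9 to 13.4) were high in every library, while Krt19 was at 7.03 to 8.71. Of the 4 epithelium markers tested, 0 had differences above 0 from 1 to 2 weeks of vehicle groups (median -0.23). With GW2580 against vehicle at 2 weeks 2 did, and none was called in either comparison. Epcam was at 6.85 to 7.31, while Cdh1 (3.49 to 3.99) and Cldn7 (4.35 to 4.94) lay below the filter level. Array medians were 5.57 to 5.63, and replicates correlated over all tested genes at 0.988 (GW2580), 0.992 (vehicle, 2 weeks) and 0.992 (vehicle, 1 week). The second 2-week vehicle array stood apart in the control probe sets: its actin 3′ signal exceeded the 5′ signal by 1.20, against 0.38 to 0.50 on the other 5 arrays, and for Gapdh by 0.92 against -0.13 to -0.10. These samples are bulk RNA, so fewer cells of a type and less RNA per cell cannot be told apart in any value below.

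Promoter windows of 300 bases, 250 before to 50 after the annotated start (RefSeq, GRCm38.p6), were held for 68 of the 84 members. All 84 matched RefSeq by gene identifier, and the members lie on 19 chromosomes with at most 9 on any one. The windows below belong to the 3 members that were called between time points, Cox7c, Cox7a2l and Cox7a1, and to Ndufa6 and Cycs, the members with the largest uncalled differences over time in each direction. Capitals mark a match to a searched motif, on either strand.
Cox7c promoter, chr13:86046746-86047045, minus strand: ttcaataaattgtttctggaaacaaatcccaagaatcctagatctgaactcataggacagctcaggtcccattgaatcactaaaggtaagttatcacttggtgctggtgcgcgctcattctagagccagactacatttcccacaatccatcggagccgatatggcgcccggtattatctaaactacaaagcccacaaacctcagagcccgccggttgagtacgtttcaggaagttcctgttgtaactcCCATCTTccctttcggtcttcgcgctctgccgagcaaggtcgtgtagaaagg
Cox7a2l promoter, chr17:83514284-83514583, minus strand: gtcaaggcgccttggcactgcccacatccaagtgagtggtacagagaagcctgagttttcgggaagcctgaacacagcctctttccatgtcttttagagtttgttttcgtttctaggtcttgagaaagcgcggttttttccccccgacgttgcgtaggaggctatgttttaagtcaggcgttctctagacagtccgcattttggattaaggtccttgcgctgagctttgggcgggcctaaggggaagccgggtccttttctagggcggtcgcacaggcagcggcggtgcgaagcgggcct
Cox7a1 promoter, chr7:30183921-30184220, plus strand: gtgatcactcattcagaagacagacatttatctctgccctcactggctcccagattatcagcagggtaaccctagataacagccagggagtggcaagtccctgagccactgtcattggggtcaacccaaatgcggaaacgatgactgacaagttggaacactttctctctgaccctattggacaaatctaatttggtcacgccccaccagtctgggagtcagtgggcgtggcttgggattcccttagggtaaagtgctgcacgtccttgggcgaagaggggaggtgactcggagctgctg
Ndufa6 promoter, chr15:82354242-82354541, minus strand: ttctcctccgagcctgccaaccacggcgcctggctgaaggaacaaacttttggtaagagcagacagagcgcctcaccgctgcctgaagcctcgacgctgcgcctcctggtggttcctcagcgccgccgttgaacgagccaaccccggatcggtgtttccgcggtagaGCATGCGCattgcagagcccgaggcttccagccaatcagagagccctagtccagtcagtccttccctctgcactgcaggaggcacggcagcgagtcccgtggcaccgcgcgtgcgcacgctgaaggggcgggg
Cycs promoter, chr6:50566520-50566819, minus strand: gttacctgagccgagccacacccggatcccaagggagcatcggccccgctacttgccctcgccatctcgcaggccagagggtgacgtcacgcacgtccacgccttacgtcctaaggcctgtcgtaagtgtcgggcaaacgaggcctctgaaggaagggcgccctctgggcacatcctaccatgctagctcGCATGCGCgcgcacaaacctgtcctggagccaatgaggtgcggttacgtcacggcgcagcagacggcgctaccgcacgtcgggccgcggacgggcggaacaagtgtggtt

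The Cox7c window held a YY1 word (AAGATGG, read on the other strand) that began 2 bases before the start. Ndufa6 and Cycs each held the NRF1 core (GCGCATGC, on the other strand), 83 and 60 bases before the start. No searched word was found in the Cox7a2l and Cox7a1 windows, which says only that these letters are not in these windows. A gene was counted where any of its windows held the word. Across the members, the NRF1 core was found for 10 of 68 (14.7%, against 3.05% of 27025 genes with windows of the same length). The 27025 were all genes with a window, tested here or not. The ETS and GABP word CCGGAAG was found for 17 of 68 (25%, against 9.93%), and AAGATGG for 10 of 68 (14.7%, against 7.28%). At least 1 of the 3 words was found for 31 of 68 members (45.6%, against 18.6%). Both strands were searched, and a match is a description of the letters, not a binding site.

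Between 1 and 2 weeks in vehicle-treated mice, the oxidative phosphorylation genes shifted little as a group: 56 of 82 differences were above 0 (68.3%, against 52.9% of all genes) and the median was 0.07, against 0.02. The few that were called were all placed in complex IV by their symbols. Cox7c, a small nuclear-encoded subunit of cytochrome c oxidase, rose 2.68-fold on its brightest probe set. Cox7a2l, known as the supercomplex assembly factor SCAF1 that links complex III to complex IV, rose 1.64-fold. Cox7a1, the heart and muscle form of subunit 7A, fell by 0.89 on the log2 scale, to 2-week levels under the filter on dim probe sets. The other 79 tested members were not called.

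The 3 calls among 82 members compare with 6.45% of all tested genes, 3.74% higher and 2.71% lower. The members' share of 3.66% was below that background. At an unadjusted p under 0.05 there were 10 of 82 members, against 23.6% of all genes. The groups did not overlap for 56 of 82 members, against 56.7% of all genes; both 2-week arrays were the higher ones for 41 (31.5% of all genes) and the lower ones for 15 (25.2%). Of the members, 78 of 82 differed by less than 1.5-fold (95.1%, against 89.8% of all genes). The members were brighter, with median levels of 11.51 to 11.72 by array, against 8.02 to 8.17 over all tested genes. Shares of all genes here and below were not matched for level. For 79 of 82, the 95% interval of the difference lay wholly within 2-fold either way, the exceptions being the 3 called members.

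**Figure D1:**
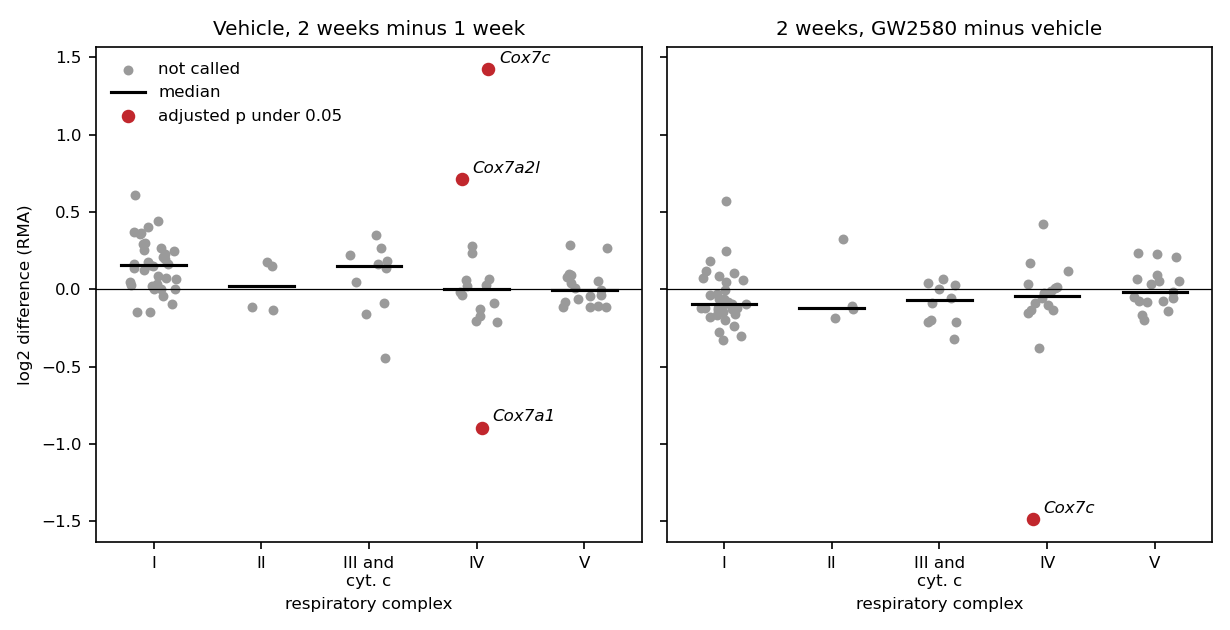
Log2 differences of the 82 tested members (points), by respiratory complex on the horizontal axis. The left panel is vehicle sorted at 2 weeks minus vehicle sorted at 1 week, and the right panel GW2580 minus vehicle at 2 weeks. Black lines are medians and red points have limma adjusted p under 0.05. Most members lie within 0.5 of 0, the complex I median is 0.16 on the left and -0.09 on the right, and the 4 red points are complex IV genes.

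Complex I takes electrons from NADH and is the largest of the complexes. Its members leaned to higher levels at 2 weeks without any single gene being called: 31 of 35 differences were above 0, and the median was 0.16. In 23 of the 35 both 2-week arrays lay above both 1-week arrays (65.7%, against 31.5% of all genes), and in 3 both lay below (25.2% of all genes). With the arrays shifted to a common 75th percentile, 25 of 35 were above 0 and the median was 0.12, and leaving out 1 vehicle array at a time left 28 to 31 above 0.

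Ndufa6, an accessory subunit of complex I, was at 11.54 and 11.47 in the 2-week vehicle arrays and 10.80 and 10.99 in the 1-week vehicle arrays. The groups did not overlap, and the difference of 0.61 (SE 0.15, 1.53-fold) stood just past the threshold (limma adjusted p = 0.0513). It was under the threshold in 6 of the 7 alternatives that leave out no array, at adjusted p between 0.0250 and 0.0456, and in none that left out a vehicle array, at 0.0931 to 0.332. Ndufv1, the flavin-bearing subunit that oxidises NADH, was at 11.04 and 10.93 at 2 weeks and 10.69 and 10.73 at 1 week, a difference of 0.27 (adjusted p = 0.304). Ndufs1, the iron-sulfur subunit beside it in the same arm, differed by 0.02 (adjusted p = 0.947). Both belong to the NADH-oxidising part of the complex, and neither was called. Ndufa3, a small subunit of the membrane arm, had the most negative difference in the complex at -0.15 (adjusted p = 0.570). Ndufa4, which carries a complex I name but is now placed in complex IV, differed by 0.15, and its hypoxia-inducible relative Ndufa4l2 by -0.14.

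Complex II, succinate dehydrogenase, joins the TCA cycle to the chain and has 4 nuclear genes. They split evenly: Sdha, the flavoprotein, differed by 0.18 and Sdhd, a membrane anchor, by 0.15, while Sdhb, the iron-sulfur subunit, differed by -0.11 and Sdhc, the other anchor, by -0.13. No complex II gene was called, the lowest adjusted p being 0.521 for Sdha.

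Complex III carries electrons from ubiquinol to cytochrome c. Of its 10 members with cytochrome c, 7 had differences above 0, and the median was 0.15. Uqcr10, a small accessory subunit, was at 12.17 and 12.09 in the 2-week vehicle arrays and 11.72 and 11.83 in the 1-week vehicle arrays, a difference of 0.35 (adjusted p = 0.176). Uqcrh, the hinge protein, differed by 0.22, the Rieske protein gene Uqcrfs1 by 0.18, Cyc1 by 0.05 and the core subunit Uqcrc1 by -0.16. Cycs, which encodes cytochrome c itself, ran the other way. It was at 12.32 and 12.53 at 2 weeks and 12.99 and 12.75 at 1 week, a difference of -0.45 (SE 0.14, 1.36-fold, adjusted p = 0.102). The Cycs groups did not overlap, and the difference was called only with the trended, robust variance (adjusted p = 0.0355). Its other probe sets differed by -0.37, -0.36 and -0.22.

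Complex IV held all 3 calls and otherwise showed no lean, with a median of 0.00 and 8 of 16 differences above 0. Cox7c was at 7.40 and 7.56 in the 2-week vehicle arrays and 5.85 and 6.26 in the 1-week vehicle arrays. Both later arrays were above both earlier ones, by 1.42 on average (SE 0.19, adjusted p = 0.0120). Its second probe set, which lies below the filter, was at 5.56 and 5.74 at 2 weeks and 4.42 and 4.44 at 1 week. The array annotation gives neither Cox7c probe set an accession, so which transcript form they read is not known here. Both were far dimmer than common complex IV subunits such as Cox4i1 (12.71 to 13.08 over the 6 arrays) and Cox5a (12.48 to 12.79). Whether either reads the main Cox7c mRNA was not tested.

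Cox7a2l was at 11.79 and 11.72 at 2 weeks and 10.92 and 11.17 at 1 week, a difference of 0.71 (SE 0.14, adjusted p = 0.0339). Its other 2 probe sets moved alike, by 0.60 and 0.73. Cox7a1 was at 4.57 and 4.67 at 2 weeks and 5.41 and 5.62 at 1 week, a difference of -0.89 (SE 0.16, adjusted p = 0.0243). Its 2-week values lie under the filter level, so it passed the filter only through the groups where it is higher and no fold is given. With the filter at the 60th percentile it was not tested. The calls depended on single vehicle arrays: Cox7a2l and Cox7a1 lost the call on leaving out any 1 of them (adjusted p from 0.0565 to 0.254 and from 0.0768 to 0.156). Cox7c lost it without the first 1-week array (0.130) or the second 2-week array (0.0507).

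**Figure D2:**
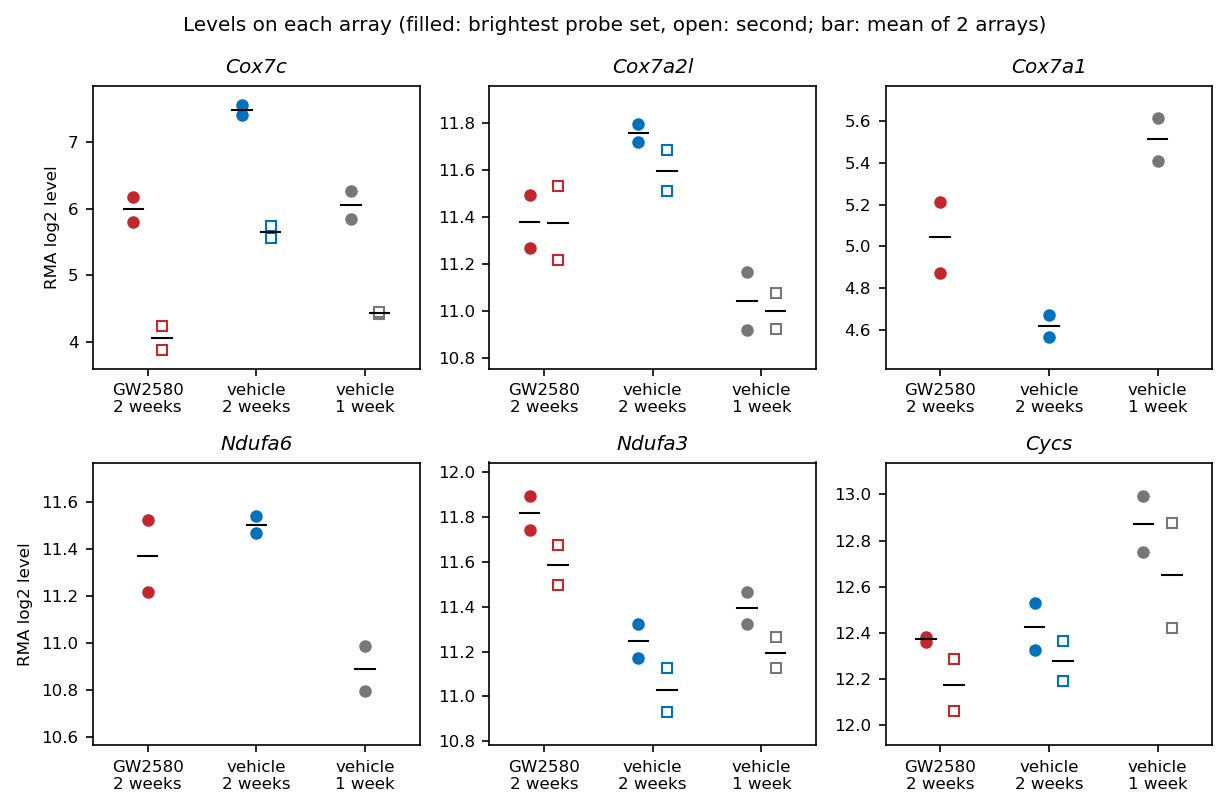
RMA log2 level on each array (vertical axis, a separate scale per gene) for the 3 called members and for Ndufa6, Ndufa3 and Cycs; filled circles are the brightest probe set, open squares the second brightest and bars the mean of 2 arrays. Levels are to be compared within a marker shape: Cox7c is highest on the 2-week vehicle arrays (7.40 and 7.56), and Ndufa3 is highest on the GW2580 arrays (11.74 and 11.89).

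The other complex IV genes were close to level. Cox4i1, the common form of the regulatory subunit 4, differed by 0.28 (adjusted p = 0.239), and Cox5a, which pairs with it, by -0.01. The tissue-restricted forms were measured too: Cox4i2, induced by low oxygen, was at 5.62 to 6.06 over the 6 arrays and differed by -0.20. The muscle form Cox6a2 was at 6.98 to 7.36, the testis forms Cox6b2 at 5.26 to 5.85 and Cox8c at 7.90 to 8.27, and the muscle form Cox8b at 5.38 to 5.74. Apart from Cox7a1, none of these forms was called.

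Complex V was close to level, its 17 members differing by -0.11 to 0.28 with 8 above 0. Its median was -0.01, and the sign of that median changed with the array left out (-0.02 to 0.03). Atp5b, the catalytic beta subunit, was at 13.41 and 13.41 at 2 weeks and 13.43 and 13.40 at 1 week. Atp5a1, the alpha subunit, differed by 0.04, Atp5l, subunit g of the membrane sector, by 0.28 (adjusted p = 0.218), and Atp5g1, a gene for the proton-carrying c ring, by -0.11. None was called.

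Some members were read by further probe sets that did not follow the brightest one. In a fit over all 27022 probe sets past the filter, 4 of the members' 76 other probe sets were called higher at 2 weeks and none lower, against 3.75% of all probe sets called in either direction. One was a second Cox7a2l probe set (adjusted p = 0.0473). The other 3, singled out after their values were seen, belong to Atp5c1, Atp5g2 and Ndufab1. Atp5c1 encodes the rotating gamma shaft of ATP synthase. Its dimmer probe set was at 7.95 and 8.06 at 2 weeks and 6.77 and 6.89 at 1 week, a difference of 1.17 (adjusted p = 0.0256), while its brightest probe set differed by 0.10. Atp5g2 encodes the same mature c-ring protein as Atp5g1. Its dimmer probe set was at 6.26 and 6.14 at 2 weeks and 4.53 and 4.82 at 1 week, a difference of 1.53 (adjusted p = 0.0261), against 0.27 on its brightest. Ndufab1 encodes the mitochondrial acyl carrier protein, a complex I subunit. Its fourth-brightest probe set was at 5.95 and 5.64 at 2 weeks and 4.44 and 4.69 at 1 week, a difference of 1.23 (adjusted p = 0.0294), against 0.09 on its brightest. Another Ndufab1 probe set, the second brightest, differed by -0.09. The 1-week values of the called Atp5g2 and Ndufab1 probe sets lie under the filter level, so both passed it through the arrays where they are high. What each dimmer probe set reads was not tested. On leaving out either 1-week array or the second 2-week array, 0 of the 76 were called (adjusted p of these 3 from 0.0517 to 0.236), and without the first 2-week array 2 were, Atp5c1 higher and Atp5d, the delta subunit, lower. That Atp5d probe set was at 11.79 and 10.65 at 2 weeks and 11.72 and 11.77 at 1 week, the low value being on the second 2-week array, whose 3′ and 5′ control signals stand apart.

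With GW2580 for the second week, the subunit genes again differed little as a group, and a single member was called. Cox7c fell 2.80-fold on its brightest probe set relative to vehicle at 2 weeks. No member of complexes I, II, III or V was called, and no member was called higher. This comparison uses the same 2-week vehicle arrays as the comparison between time points, so the differences of both are given side by side and no agreement between them is read.

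The 1 call of 82 compares with 0.367% of all tested genes, 0.298% lower and 0.0688% higher. At an unadjusted p under 0.05 there were 5 of 82, against 18% of all genes. The median difference was -0.08, against -0.05 over all genes, and 28 of 82 differences were above 0 (41.7% of all genes). The groups did not overlap for 40 of 82 members, against 49.8% of all genes. In 27 members both GW2580 arrays lay below both 2-week vehicle arrays (31.5% of all genes did), and in 13 both lay above (18.3%). All but Cox7c differed by less than 1.5-fold, and for the same 81 members the 95% interval lay within 2-fold.

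Cox7c was at 5.81 and 6.18 in the GW2580 arrays, against 7.40 and 7.56 in the 2-week vehicle arrays. Both treated arrays were below both vehicle arrays, by 1.49 (SE 0.19, limma adjusted p = 0.0443). The second probe set was at 3.89 and 4.24 with GW2580 and 5.56 and 5.74 with vehicle. The call was lost when only the 4 arrays compared were fitted or either 1-week array was left out (adjusted p = 0.0835), and without either 2-week vehicle array (0.0776 and 0.124) or the first GW2580 array (0.159), the difference itself staying between -1.67 and -1.30.

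Markers of other cells were set beside Cox7c. The mean level of 5 neutrophil markers was 5.67 and 6.64 in the GW2580 arrays, 6.44 and 6.79 in the 2-week vehicle arrays and 5.88 and 6.15 in the 1-week vehicle arrays, with 0 of 4 tested called in either comparison. On this mean the second GW2580 array lay within the 2-week vehicle values. S100a8 was at 6.93 and 9.14 with GW2580, 9.46 and 10.2 with vehicle at 2 weeks, and 7.77 and 8.37 at 1 week. It differed by -1.80 with GW2580 (limma adjusted p = 0.192) and 1.76 over time (0.131). Of the 4 tested, 2 had differences above 0 with GW2580 and 3 over time. Of the 7 lung epithelium markers, Sftpd and Sftpa1, the surfactant proteins D and A, fell with GW2580 (-1.12 and -1.78, adjusted p = 0.0445 and 0.0489), and Sftpd rose between 1 and 2 weeks (0.89, adjusted p = 0.0251). Scgb1a1, the club cell secretoglobin, ran the other way without being called: it was at 10.91 and 7.59 with GW2580, 6.49 and 8.08 with vehicle at 2 weeks, and 11.31 and 9.59 at 1 week, differences of 1.97 with GW2580 and -3.16 over time. The mean of these 7 markers was 7.64 and 6.92 with GW2580, 7.97 and 7.89 with vehicle at 2 weeks, and 7.94 and 7.90 at 1 week. Fibroblast markers averaged 7.66 and 6.80 with GW2580, 7.08 and 7.11 with vehicle at 2 weeks, and 8.49 and 7.50 at 1 week, with 0 of 7 called in either comparison. Macrophage markers averaged 7.09 and 7.63 with GW2580, 7.28 and 7.58 with vehicle at 2 weeks, and 7.35 and 7.45 at 1 week, with 0 of 7 tested called. Fabp4, a fatty acid carrier of fat cells, capillary endothelium and alveolar macrophages and the one brown fat marker past the filter, was at 4.97 and 6.51 with GW2580, 7.59 and 8.32 with vehicle at 2 weeks, and 6.44 and 5.77 at 1 week. It differed by -2.22 with GW2580 (adjusted p = 0.0859) and 1.85 over time (adjusted p = 0.0583). Of 8 heart muscle markers, 4 lay below the filter, and the list averaged 4.99 to 5.18 on all arrays. One of them, Tnnt2, was at 5.65 and 6.84 with GW2580, 6.55 and 7.06 with vehicle at 2 weeks, and 5.76 and 5.70 at 1 week. Its difference was -0.56 with GW2580 (limma adjusted p = 0.431) and 1.08 over time (0.107). Of the 4 tested, 1 had a difference above 0 with GW2580 and 2 over time, and none was called. The part of these cells in the Cox7c and Cox7a1 differences was not tested.

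In complex I, 9 of 35 differences were above 0 with a median of -0.09. Without the first GW2580 array 17 of 35 were above 0 and the median was -0.0013, and without the second 7 of 35 and -0.17. Ndufv1 was at 10.50 and 10.81 in the GW2580 arrays and 11.04 and 10.93 in the 2-week vehicle arrays, a difference of -0.33 (SE 0.14, adjusted p = 0.282), the most negative of the complex. Ndufs1, its neighbour, was at 10.10 and 10.08 with GW2580 and 10.32 and 10.41 with vehicle, a difference of -0.28 (adjusted p = 0.288). For both, the groups did not overlap but the adjusted p was far from the threshold. Ndufa4 differed by -0.24, Ndufa4l2 by 0.07 and Ndufa6 by -0.13.

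Ndufa3 stood apart from the rest of the complex. It was at 11.74 and 11.89 in the GW2580 arrays, against 11.32 and 11.17 in the 2-week vehicle arrays, and its second probe set differed by 0.56. The difference on the brightest probe set was 0.57 (SE 0.13, 1.49-fold, adjusted p = 0.0971), and it was called only with the trended, robust variance (adjusted p = 0.0491). The remaining, dim probe set of Ndufa3, under the filter level, differed by -0.50.

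Of the complex II genes, Sdhc was at 10.27 and 10.55 with GW2580 and 10.19 and 9.97 with vehicle, a difference of 0.33 (adjusted p = 0.290). The other 3 genes had negative differences, from -0.11 for Sdha to -0.18 for Sdhb. In complex III, Uqcr10 was at 11.67 and 11.95 with GW2580 and 12.17 and 12.09 with vehicle, a difference of -0.32 (adjusted p = 0.283). Uqcrfs1 and Cyc1 each differed by -0.21, Cycs by -0.05, Uqcrc1 by 0.00 and Uqcrh by 0.07. The median of the 10 was -0.07, and none was called.

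Cox7a2l was at 11.27 and 11.49 in the GW2580 arrays and 11.79 and 11.72 in the 2-week vehicle arrays, a difference of -0.38 (SE 0.14, adjusted p = 0.230). Cox7a1 was at 5.21 and 4.87 with GW2580 and 4.57 and 4.67 with vehicle, a difference of 0.42 (SE 0.16, adjusted p = 0.212). The GW2580 values of both genes lay between those of the 2 vehicle groups, and neither was called. Cox4i1 differed by -0.14, Cox5a by -0.15 and Cox4i2 by -0.01. In complex V the differences ran from -0.20 (Atp5a1) to 0.24 (Atp5j2, subunit f of the membrane sector), with a median of -0.02, and Atp5b differed by -0.08, Atp5l by -0.05 and Atp5g1 by 0.07. None of the 76 further probe sets of the members was called with GW2580 (0.411% of all probe sets were), although the dimmer probe sets of Atp5c1, Atp5g2 and Ndufab1 differed by -1.02, -1.23 and -0.97 (adjusted p = 0.0597, 0.0677 and 0.0775).

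The GW2580 arrays differed from each other in a shared direction more than the vehicle replicates did across these genes. Replicates correlated over the members at 0.9976 (GW2580), 0.9984 (vehicle, 2 weeks) and 0.9972 (vehicle, 1 week). The second GW2580 array was the higher one for 70 of 82 members, with a median difference of 0.17, against 60.6% of all genes and a median of 0.07. In vehicle at 2 weeks 44 of 82 members were higher on the second array (median 0.01), and in vehicle at 1 week 46 of 82 (median 0.02). Relative to each gene's mean over the 6 arrays, the members' median was -0.06 and 0.07 on the GW2580 arrays, 0.04 and 0.06 on the 2-week vehicle arrays, and -0.03 and -0.04 on the 1-week vehicle arrays. Both GW2580 values thus enclosed those of the vehicle groups. Without the first GW2580 array the members' median difference from vehicle at 2 weeks was 0.01, and without the second it was -0.12. The same pair of arrays differed in the marker lists given above.

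**Figure D3:**
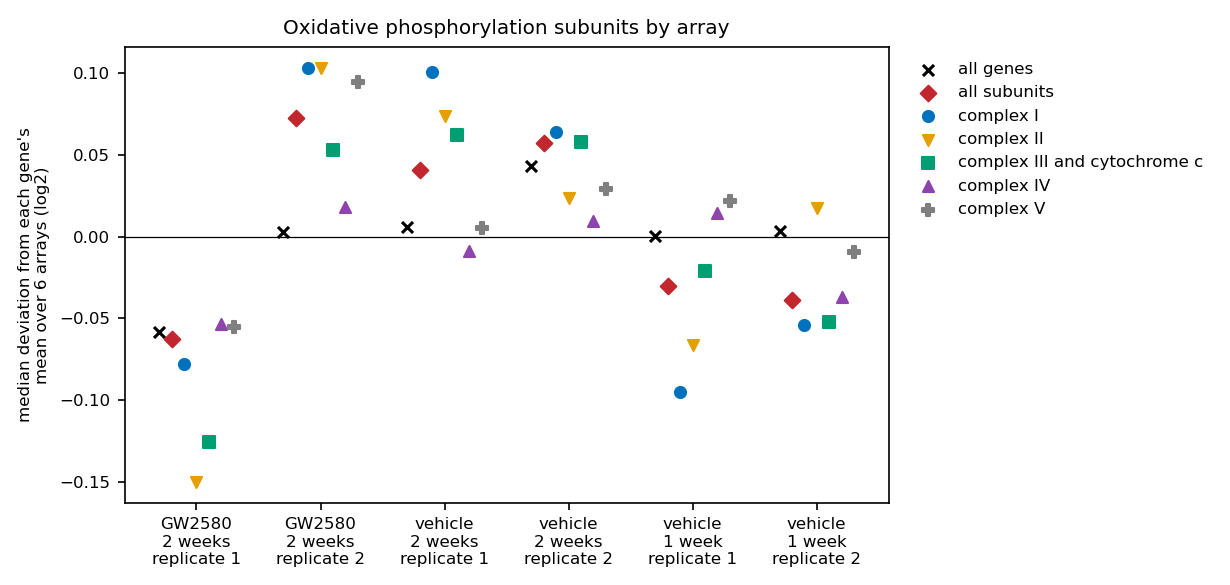
Median deviation of each set of genes from the genes' own mean over 6 arrays (vertical axis, log2), for each array (horizontal axis); symbols are all tested genes, all members and the 5 complexes. The first GW2580 array is below 0 in every set and the second above 0, while complex I is above 0 on both 2-week vehicle arrays and below 0 on both 1-week arrays.

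**Figure D4:**
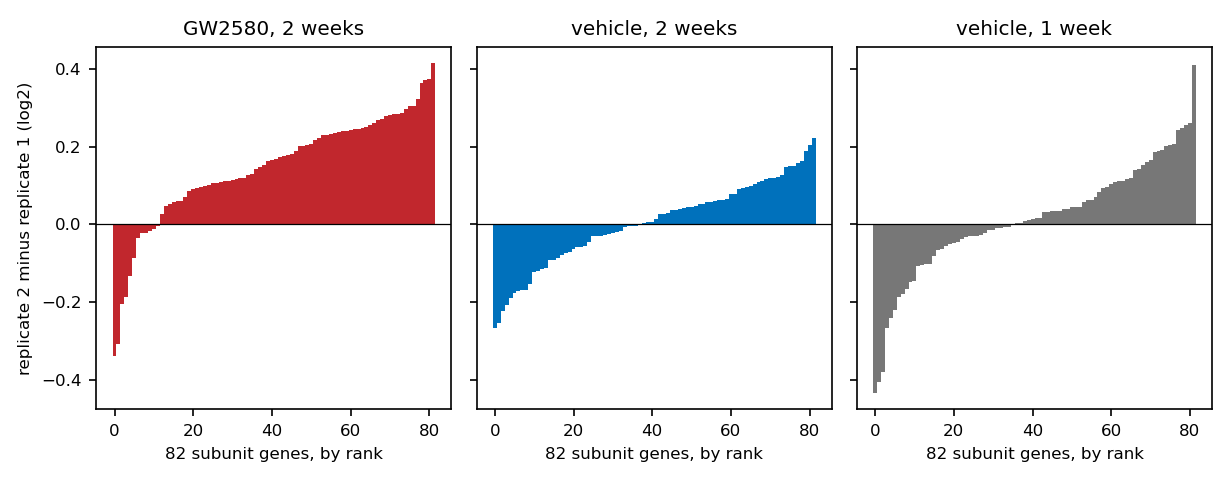
Difference between the replicate arrays of a group (replicate 2 minus replicate 1, log2, vertical axis) for each of the 82 tested members, ranked (horizontal axis), with a panel for each group. With GW2580, 70 bars are above 0, against 44 for vehicle at 2 weeks and 46 at 1 week.

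Set against the 1-week vehicle arrays, the GW2580 arrays showed no called member. By limma 0 of 82 passed, against 0.512% of all genes (0.359% higher and 0.153% lower). At an unadjusted p under 0.05 there were 8 of 82, against 17% of all genes, and for the adjusted count the other settings run gave 0 as well. Differences ran from -0.50 to 0.60 with a median of 0.04, against -0.02 over all genes, and for all 82 the 95% interval lay within 2-fold. The 0.60 was that of Ndufv3, a complex I subunit (1.52-fold, limma adjusted p = 0.113). The groups did not overlap for 38 of 82 members, against 46.7% of all genes. Cox7c differed by -0.06 (adjusted p = 0.906), Cycs by -0.50 (0.132), Cox7a1 by -0.47 (0.184), Ndufa6 by 0.48 (0.165), Ndufa3 by 0.42 and Cox7a2l by 0.34 (0.290).

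Genes that work beside the subunits were followed from lists of assembly factors, mitochondrial ribosome proteins, TCA cycle enzymes, regulators, glycolysis enzymes and oxygen-dependent respiratory genes. Between 1 and 2 weeks, few passed the test. Nrf1, the transcription factor NRF1 whose core word was searched above, fell. It was at 7.33 and 7.43 in the 2-week vehicle arrays and 8.17 and 8.18 in the 1-week vehicle arrays, a difference of -0.80 (SE 0.13, adjusted p = 0.0207). Its other 3 probe sets differed by -0.06, -0.45 and -0.20, and with probe sets averaged it was not called (-0.38, adjusted p = 0.0892). With GW2580, Nrf1 was at 8.16 and 7.95, a difference of 0.68 from vehicle at 2 weeks (adjusted p = 0.0768). Ndufa6 and Cycs, whose windows hold the NRF1 core, were picked as the largest uncalled differences in each direction, which fixed their opposite signs. Any link between Nrf1 and the members was not tested. The other 13 regulators tested were not called in either comparison.

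Of 42 assembly factors, Cox20, which helps mature a complex IV core subunit, fell at 2 weeks (-0.51, adjusted p = 0.0495), and the list's median was 0.04. Of 76 mitochondrial ribosome genes, Mrpl49 and Mrps25 fell (-0.61 and -0.55, adjusted p = 0.0416 and 0.0443), and the median was 0.10. Cox20, Mrpl49 and Mrps25 were not called with probe sets averaged (adjusted p from 0.0526 to 0.542). Of 15 TCA cycle genes, 0 were called, and Idh3g, a subunit of NAD-dependent isocitrate dehydrogenase, was nearest (0.54, adjusted p = 0.0674). Bnip3, a hypoxia-induced mitophagy receptor, rose by 2.01 (adjusted p = 0.0329, and 0.0930 with the trended, robust variance), alone among 6 oxygen-dependent respiratory genes, whose median was 0.35. None of 16 glycolysis genes was called. Nrf1, Cox20, Mrpl49 and Mrps25 were not called on leaving out any 1 vehicle array (adjusted p from 0.0645 to 0.303), and Bnip3 not without the first 1-week array or either 2-week array (0.106 to 0.186). ND5, the one gene of mitochondrial DNA with a probe set of its own, differed by -0.20 (adjusted p = 0.413).

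With GW2580, no gene of these lists was called. The TCA cycle genes lay lower in 15 of 15 cases, by 0.07 to 0.38 in size with a median of -0.21, Dld, a subunit shared by the 2-oxoacid dehydrogenases, coming nearest (-0.38, adjusted p = 0.188). Of 76 mitochondrial ribosome genes 12 had differences above 0 (median -0.16), and of 42 assembly factors 13 (median -0.14). By array, the ribosome genes averaged 9.69 and 9.90 with GW2580, against 9.94 and 9.95 with vehicle at 2 weeks, and the assembly factors 8.47 and 8.65, against 8.66 and 8.69, the first GW2580 array being the lowest in both. The TCA cycle genes averaged 10.69 and 10.80 with GW2580, against 10.97 and 10.99. Ndufaf4, a complex I assembly factor, was at 8.90 and 8.86 in the GW2580 arrays and 9.55 and 9.54 in the 2-week vehicle arrays, a difference of -0.67 (adjusted p = 0.0647), and its second probe set differed by -0.59. Glycolysis genes had a median of 0.17, and ND5 differed by 0.16. Over all tested genes the median was -0.05.

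**Figure D5:**
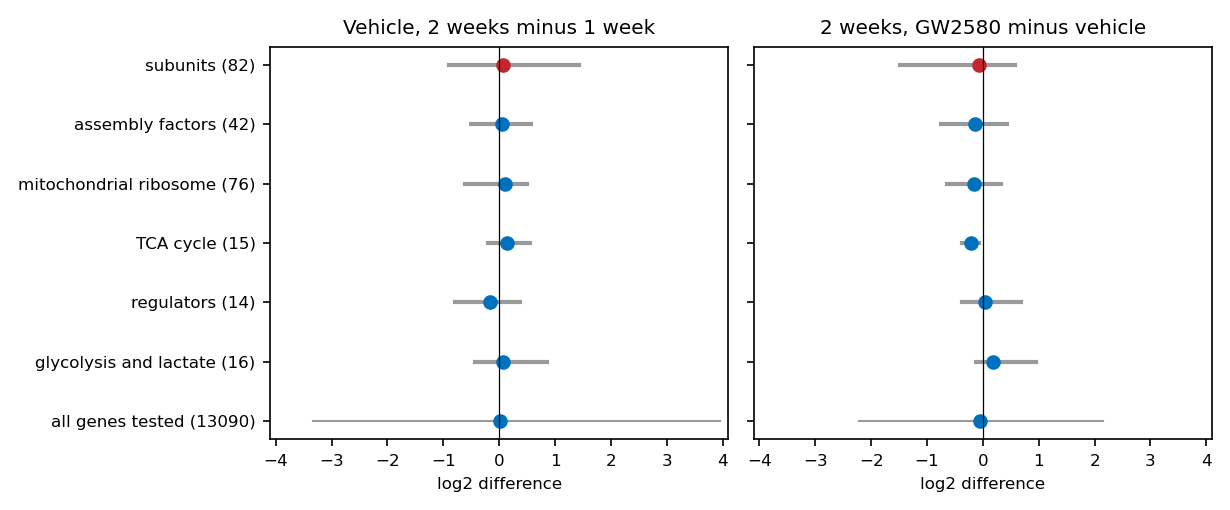
Median (dot) and full range (line) of log2 differences for the subunit genes, the related lists and all tested genes, with the number tested in brackets. The left panel is vehicle sorted at 2 weeks minus vehicle sorted at 1 week, and the right panel GW2580 minus vehicle at 2 weeks. The oxygen-dependent respiratory genes are not drawn. The medians drawn lie between -0.21 and 0.17, and on the right the whole TCA cycle range is below 0.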

How the data were processed

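Expression was measured in sorted MVT1 cells on 6 Affymetrix arrays, from 2 µg of total RNA each. The deposited values are log2 levels for 45037 probe sets and 64 controls, made by the authors with RMA, per the submitters' processing notes; no version is given in the sources used here. RMA corrects background, quantile-normalises the arrays and summarises probes, so a change shared by most genes would be removed. No further normalisation was applied. Probe sets with exactly 1 symbol in the platform annotation were used, and the brightest over 6 arrays stood for its gene. Genes with a mean under the 40th percentile of probe set means were left out. limma (3.58.1, R 4.3.3) fitted 3 group means over the 6 arrays (3 residual degrees of freedom, prior 4.97, prior SD 0.147), with Benjamini-Hochberg adjustment over 13090 genes. The number of arrays limits the precision. The members, lists, motifs and tests were chosen with earlier results of these data known. Named members were those called, the largest difference in each direction per complex and comparison, and a fixed set of core and tissue-form genes. Ndufc2, Ndufab1, Ndufv3, Atp5c1, Atp5d and Atp5g2 were named after their values were seen. Alternatives averaged a gene's probe sets, dropped or raised the filter, shifted arrays to a common 75th percentile, used a trended, robust variance, fitted only the 4 arrays compared, added the replicate number as a block, and left out each array; those for genes outside the members and for further probe sets were chosen after seeing the data. The script was tested on simulated data. Promoters come from RefSeq (GRCm38.p6); protein sequences were not used here.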

Additional observations from a re-analysis of the deposited data

How the results depend on the processing

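The members' count of calls between 1 and 2 weeks was 3, and became 6 with probe sets averaged (Atp5c1, Atp5g2, Cox7a1, Cox7a2l, Cox7c and Ndufa6) and 6 with the trended, robust variance (Cox7a1, Cox7a2l, Cox7c, Cycs, Ndufa6 and Ndufc2). Leaving out 1 array gave 0 to 4, with 0 without the first 1-week or the second 2-week vehicle array. With GW2580 the count of 1 became 2 with the trended, robust variance (Cox7c and Ndufa3), 0 with only the 4 arrays compared, and 0 to 1 with 1 array left out. The median difference of the members with GW2580 ranged from -0.123 to 0.0070 with 1 array left out, and that of GW2580 against 1 week from -0.044 to 0.128. Replicate numbers recur in each group. Deviations of same-numbered arrays correlated at 0.292 (GW2580 and 1 week), 0.009 (GW2580 and vehicle at 2 weeks) and 0.002 (2 weeks and 1 week). What same-numbered arrays share beyond the number was not tested. With the replicate block the members called were 4 (Ndufa6 added), 1 and 0, and over all genes 1223, 154 and 182, against 844, 48 and 67. Counts over all genes were also above 1.5 times these with the trended, robust variance for GW2580 against vehicle at 2 weeks (131) and against 1 week (139), and with no filter for GW2580 against vehicle (74). With only the 4 arrays, limma called 0 of 13090 genes for GW2580 against vehicle (2120 at an unadjusted p under 0.05) and 24 against 1 week. Leaving out 1 array gave 0 to 1059 calls over time, 0 to 167 for GW2580 against vehicle and 0 to 169 against 1 week. Of 814 values of named genes under alternatives, 23 changed sign, none from a value above 0.202 in size. With probe sets averaged these were Atp5j2 (0.015) and Ndufa3 (0.013) over time, and at a common 75th percentile Ndufs1 over time (-0.015) and Cox4i2 with GW2580 (0.019). With 1 array left out, differences over time ranged from -0.020 to 0.010 for Atp5b, -0.405 to 0.00081 for Cox4i2, -0.070 to 0.040 for Cox5a, -0.037 to 0.079 for Ndufs1 and -0.159 to 0.031 for Atp5j2. With GW2580 they ranged from -0.053 to 0.193 for Uqcrh, -0.157 to 0.048 for Cycs, -0.207 to 0.208 for Uqcrc1, -0.137 to 0.032 for Atp5l, -0.035 to 0.021 for Cox4i2, -0.287 to 0.019 for Ndufa6, -0.232 to 0.017 for Sdha and -0.072 to 0.212 for Atp5g1, and against 1 week from -0.269 to 0.143 for Cox7c. The causes were not tested. At a common 75th percentile the median of all genes over time was -0.02 and that of the members 0.03. No complex I gene was called in the main fit, with 2 arrays a group. Whether the small differences of complex I extend beyond these arrays was not tested.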

Other observations

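The annotation gives 10 further probe sets that name a member together with another gene, and these stand in no count above. The 2 that name Ndufb4 with Ndufb4b and Ndufb4c were at 10.53 to 11.14 on the 6 arrays. Between 1 and 2 weeks they differed by 0.36 and 0.32 (limma adjusted p = 0.227 and 0.284 in the fit over all probe sets), and with GW2580 by -0.24 and -0.24. The probe set that names Ndufs6 with Ndufs6b differed by 0.13 over time and that for Ndufs5 with its pseudogene by 0.03. None of the 10 was called in either comparison.

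Gabpb1, a subunit of the GABP factor whose word was searched in the promoters, gave opposite signs on its probe sets: -0.49 over time on the brightest (adjusted p = 0.0839) and 0.40 on the other. Cox5b, a complex IV subunit singled out after its values were seen, differed by 0.03 over time on its brightest probe set, while 2 dimmer ones differed by -0.75 and 0.50.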
